A study of Mus musculus with 12 samples.

Results

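Control neurospheres were compared with control whole brains of mouse embryos, which make up 6 of the 12 RNA libraries of the study. The libraries were chosen by their labels alone. The 3 control neurosphere libraries were joined gene by gene with the 3 control brain libraries, and the reads over exons were counted in each. The control neurospheres were primary cultures of neural stem cells taken from forebrain at embryonic day 16. The control brains were whole brains at embryonic day 15. All 6 libraries are labelled male, C57BL/6J and Wildtype, and their titles carry fy/-. The other 6 libraries come from conditional knockout (CKO) animals, whose neural stem cells lack the (pro)renin receptor, and enter below only where CKO is named. The labels do not say whether the 3 libraries of a group came from separate animals or cultures, so p-values measure only the spread between these libraries. Culture, embryonic day, dissected region and the share of intron reads given below change together with the tissue, and their parts cannot be told apart.

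Neural stem cells of the embryonic forebrain are radial glia, which line the ventricle. They produce neurons first, often through intermediate progenitors, and astrocytes and oligodendrocyte precursors later. Placed in suspension culture with growth factors, such cells divide and form floating spheres, while a whole brain also holds neurons of every region, vessels, meninges, microglia and blood.

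Control neurospheres held 12482622, 12382975 and 14050572 exon reads, and control brains 6675874, 5669338 and 6345029. Intron reads made up 14.1, 9.18 and 9.79% of all gene reads in control neurospheres, against 65.3, 63.8 and 65.5% in control brains. Levels are given as CPM, the exon reads of a gene scaled to library size with TMM factors, and differences as log2 fold changes of control neurospheres over control brains with the SE (n = 3 libraries per group). Control neurosphere library 1 stood apart from libraries 2 and 3. On the second principal component, with 6.92% of the variance, it lay at -51.6, and the other two at 29.2 and 20.6. It also went against its label: the 4 Y-linked genes Ddx3y, Eif2s3y, Kdm5d and Uty together had 1 read there, against 2482 and 2992 reads in control neurosphere libraries 2 and 3, and 1858, 1453 and 1777 reads in the control brains. Values without this library are given beside the gene lists that depend on it most, and "without library 1" refers to it.

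The tissues differed in most genes. Of 13915 genes tested, 4832 (34.7%) were higher and 4739 (34.1%) lower in control neurospheres at an adjusted p under 0.05, 68.8% together. By the stricter test against a 2-fold change, 1571 (11.3%) were higher and 2069 (14.9%) lower, and these are called beyond 2-fold. The libraries of the groups did not overlap in 74.5% of genes, so a list with about these shares is like the average gene. The median log2 fold change over all genes tested was 0.02. Scaling by total exon reads alone moved it by -0.13, and differences smaller than that depend on the scaling.

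**Figure D1:**
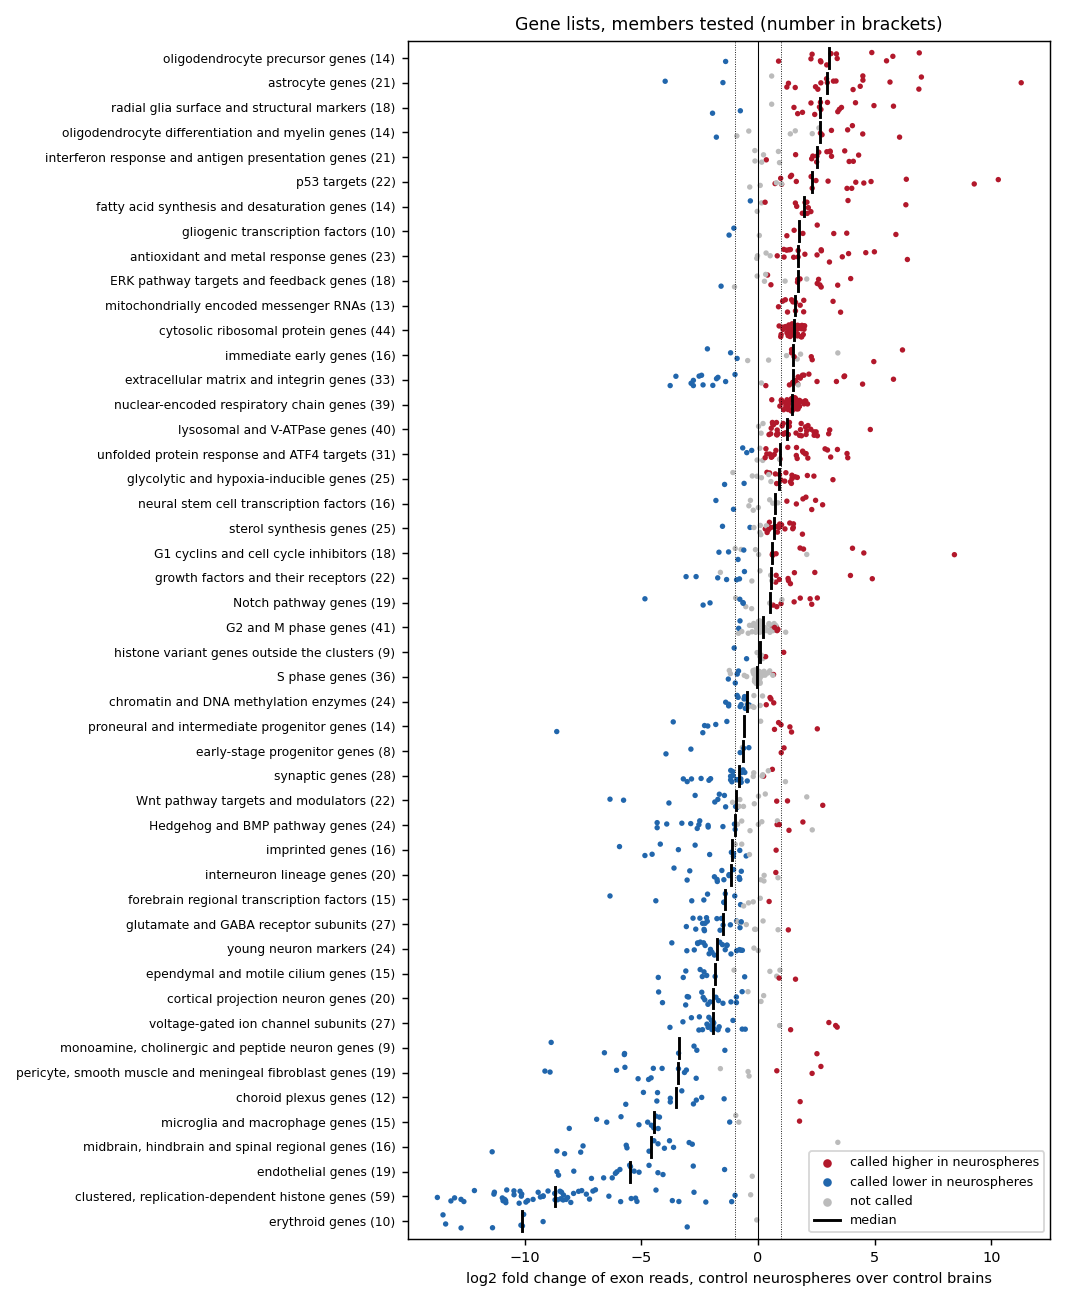
Log2 fold change of control neurospheres over control brains for each tested member of 48 gene lists, ordered by the list median (black bars). Red and blue points are members called higher and lower, grey points were not called, and dotted lines mark a 2-fold change. Glial, lysosomal, ribosomal and respiratory chain genes lie to the right, neuronal genes to the left, and vascular, blood and clustered histone genes farthest left.

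Genes listed for radial glia were mostly higher in control neurospheres, with surface and structural proteins ahead of transcription factors. These lists are not exclusive to radial glia. Cspg4, Cspg5 and Ptprz1 are counted again among oligodendrocyte precursor genes below, Slc1a2 among astrocyte genes, and Sox9 among gliogenic and astrocyte genes. Of 18 surface and structural markers, 15 were higher and 2 lower, 14 and 1 of them beyond 2-fold, with a median of 2.65. Fabp7, the brain fatty acid binding protein of radial glia, had 1408, 2961 and 3083 CPM in control neurospheres, against 217, 259 and 221 CPM in control brains (log2 fold change 3.42 ± 0.31; adjusted p = 9.7e-05). Slc1a3, the glutamate transporter GLAST, had 996, 1733 and 1599 CPM in control neurospheres, against 113, 141 and 133 CPM in control brains (3.48 ± 0.23; adjusted p = 2.7e-05). Every neurosphere library of both genes lay above every brain library. Vim, which encodes the intermediate filament vimentin, and Tnc, the matrix glycoprotein tenascin C, were also higher, by 2.43 ± 0.17 and 1.9 ± 0.21. The receptor gene Ednrb, the secreted glycoprotein gene Mfge8 and the proteoglycan gene Bcan were higher by 4.18 ± 0.41, 4.97 ± 0.32 and 5.81 ± 0.23. Gli3, a Hedgehog pathway transcription factor, and Cdh2, which encodes N-cadherin, were the 2 lower members, at -1.95 and -0.76.

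Among 16 transcription factors and regulators of neural stem cells, 7 were higher and 2 lower (median 0.74). Sox2, which maintains stem cells, had 333, 482 and 514 CPM in control neurospheres, against 131, 105 and 114 CPM in control brains (1.93 ± 0.18; adjusted p = 9.7e-05). Hes5, a Notch effector, had 79.5, 244 and 278 CPM in control neurospheres, against 46.1, 41.1 and 34.7 CPM in control brains (2.3 ± 0.45), with no overlap between the groups. Sox9 was higher by 1.24 ± 0.21. Pax6, the patterning factor of dorsal forebrain, had 37.7, 80.2 and 70.6 CPM in control neurospheres, against 70.1, 55.1 and 61.5 CPM in control brains, and its groups overlapped (0.01 ± 0.27; adjusted p = 0.97). Nes, which encodes nestin, and Nr2e1, also known as Tlx, were not called (adjusted p = 0.0515 and 0.0918). Without library 1, Pax6 was at 0.28 (adjusted p = 0.0335) and Nr2e1 at 0.90 (adjusted p = 5.3e-05), and without library 2 Nes was at 1.11 (adjusted p = 0.0088), each called higher. Pax6 had the other sign and was not called without neurosphere library 2 (-0.20; adjusted p = 0.55) or 3 (-0.07; adjusted p = 0.853). Zbtb20 and Msi1, an RNA-binding protein of progenitors, were lower, at -1.81 ± 0.23 and -1.05 ± 0.24.

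**Figure D2:**
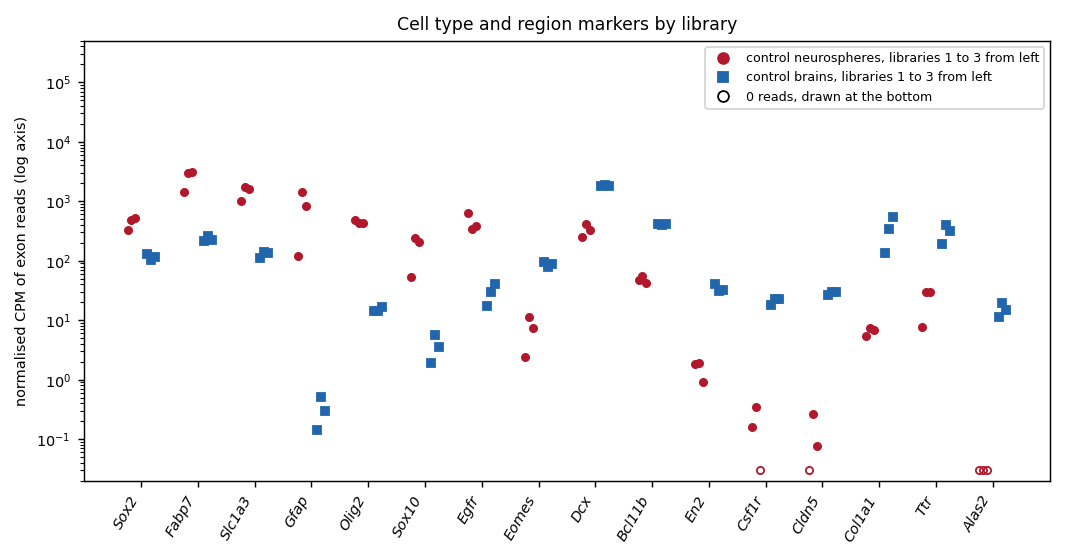
Normalised CPM on a log axis of 16 marker genes in the 3 control neurosphere libraries (red circles) and the 3 control brain libraries (blue squares). Radial glia, astrocyte and oligodendrocyte genes at left are higher in all 3 neurosphere libraries, and neuronal, regional, vascular and blood genes at right are lower in all 3.

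Genes of astrocytes and of oligodendrocyte precursors were far higher in control neurospheres. Gfap, the intermediate filament of astrocytes, had 122, 1450.0 and 826 CPM in control neurospheres, against 0.144, 0.507 and 0.3002 CPM in control brains (11.28 ± 1.38; adjusted p = 3.5e-04). Control neurosphere library 1 was the lowest of the neurospheres, and the control brains were near 0. Of 21 astrocyte genes, 18 were higher and 2 lower, 15 higher beyond 2-fold (median 2.97). Gfap and Agt, with 3 or fewer reads in each brain library, passed the filter on low counts through the neurospheres. Apoe, the lipid carrier secreted by astrocytes, had 1913, 5716 and 4828 CPM in control neurospheres, against 29.8, 45.3 and 29.9 CPM in control brains (6.89 ± 0.51). The water channel gene Aqp4 was higher by 5.66 ± 0.65, the aldolase gene Aldoc by 3.23 ± 0.48 and the gap junction gene Gja1 by 1.59 ± 0.44. The Gja1 call was lost without control brain library 1 (adjusted p = 0.0559) and by junction reads (0.94; adjusted p = 0.196). The lower members were Gjb6, a connexin of mature astrocytes (-3.98 ± 0.46), and Id4, an inhibitor of differentiation factors (-1.5 ± 0.53).

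Of 14 oligodendrocyte precursor genes, 13 were higher and 1 was lower (median 3.04). Olig2, the transcription factor that sets the oligodendrocyte fate, had 488, 429.7 and 424 CPM in control neurospheres, against 14.4, 14.4 and 16.8 CPM in control brains (4.88 ± 0.12; adjusted p = 1.9e-06), with little spread between libraries. Sox10, which acts after it, had 53.9, 239 and 210.1 CPM in control neurospheres, against 1.88, 5.75 and 3.6 CPM in control brains (5.51 ± 0.71). Gpr17, a receptor of precursors about to differentiate, had 17, 749 and 580.3 CPM in control neurospheres, against 2.31, 5.07 and 3.9 CPM in control brains (6.91 ± 1.43; adjusted p = 0.00424), and Pdgfra, the PDGF receptor of precursors, had 75.8, 317 and 365 CPM in control neurospheres, against 38, 49.7 and 64.4 CPM in control brains (2.32 ± 0.56). For Sox10, Gpr17 and Pdgfra, library 1 was the lowest of the neurospheres and still above every control brain. Cspg4, which encodes NG2, had 219, 69.7 and 80.8 CPM in control neurospheres, against 15.7, 19.1 and 22.2 CPM in control brains, and here library 1 was the highest (2.7 ± 0.48). Vcan, which encodes the matrix proteoglycan versican, was the lower member (-1.39 ± 0.14).

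Genes of later oligodendrocytes varied most between the neurosphere libraries. Mbp, which encodes myelin basic protein, had 9.11, 150.4 and 65.5 CPM in control neurospheres, against 28.9, 27.6 and 29.6 CPM in control brains (1.38 ± 0.82; adjusted p = 0.172). Library 1 lay below the control brains, and libraries 2 and 3 above them. Without library 1 Mbp was called higher, at 1.91 (adjusted p = 0.0122). Myrf, the transcription factor of myelin genes, had 5.63, 103 and 72.5 CPM in control neurospheres, against 3.32, 4.23 and 3.45 CPM in control brains (4.04 ± 1.02). Of 14 myelin genes, 7 were higher, 5 of them beyond 2-fold, against 12 and 11 of 15 without library 1, where 38.7% of all genes were called higher and 13.6% higher beyond 2-fold.

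Genes that mark successive stages of progenitors moved in both directions. Among 10 transcription factors and genes of the gliogenic stage, 7 were higher and 2 lower (median 1.73). Nfia and Nfib, nuclear factors that start gliogenesis, were the lower ones: Nfia had 225, 206 and 201 CPM in control neurospheres, against 464, 416 and 415 CPM in control brains (-1.04 ± 0.09). Sox8 and Lrig1 were higher by 3.8 ± 0.25 and 3.25 ± 0.15. Of 8 early-stage genes, 2 were higher and 5 lower (median -0.64). Lin28b, an RNA-binding protein of early progenitors that blocks let-7, had 3.57, 0.698 and 0.61 CPM in control neurospheres, against 26.4, 26.4 and 23.3 CPM in control brains (-3.95 ± 0.59). Igf2bp1, which binds mRNAs in early progenitors, was lower, at -2.88 ± 0.19. Hmga2, a chromatin protein of young stem cells, had 23.2, 3.14 and 2.67 CPM in control neurospheres, against 14.3, 10.7 and 21.3 CPM in control brains. Library 1 alone lay above all control brains for Hmga2, and libraries 2 and 3 below them (adjusted p = 0.493), and without it the gene was called lower, at -2.41 (adjusted p = 7.1e-05).

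The proneural and intermediate progenitor list split, with 6 of 14 genes higher and 7 lower. Its median was -0.61 by exon reads, -0.19 without library 1, and 0.83 by junction reads. Eomes, the defining factor of intermediate progenitors of the cortex, had 2.38, 11.3 and 7.54 CPM in control neurospheres, against 95.2, 78.1 and 89.6 CPM in control brains (-3.63 ± 0.46; adjusted p = 4.3e-04). Neurog2, the proneural factor of the dorsal forebrain, was lower, at -2.15 ± 0.53, and Neurod1 at -2.37 ± 0.14. Neurog1 had no read in the 3 control neurosphere libraries, against 5.92, 5.07 and 4.65 CPM in control brains. In the other direction, the Notch ligand genes Dll1 and Dll3 were higher by 0.99 ± 0.13 and 2.54 ± 0.40.

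Neuronal genes were lower but still present in control neurospheres. Of 24 young neuron markers, none was higher and 22 were lower, 15 beyond 2-fold (median -1.75). Dcx, which encodes the microtubule protein doublecortin of migrating neurons, had 249, 412 and 333 CPM in control neurospheres, against 1839.9, 1868 and 1820.1 CPM in control brains (-2.48 ± 0.18; adjusted p = 3.3e-05). Tubb3, the neuronal beta-tubulin, had 199.8, 319.9 and 219 CPM in control neurospheres, against 1056, 1063 and 1039.6 CPM in control brains (-2.1 ± 0.18). The neurosphere libraries held both mRNAs, at levels below every brain library. Stmn2 and Rbfox3, which encodes the nuclear protein NeuN, were lower, at -1.53 ± 0.14 and -1.33 ± 0.20, and the growth cone gene Gap43 at -0.8 ± 0.22. The Gap43 call was lost without control brain library 2 (adjusted p = 0.0616). In bulk RNA, fewer cells of a type and less RNA per cell cannot be told apart.

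Of 20 genes of cortical projection neurons, none was higher (1 without library 1) and 17 were lower, 13 beyond 2-fold (median -1.93). Bcl11b, the factor of deep-layer neurons also called Ctip2, had 47, 54.9 and 42 CPM in control neurospheres, against 416, 402 and 416 CPM in control brains (-3.1 ± 0.11). Tbr1, another deep-layer factor, was lower, at -3.04 ± 0.19, and Neurod2 at -2.05 ± 0.17. Of 20 interneuron genes, 1 was higher and 15 were lower, 7 beyond 2-fold (median -1.15). Dlx1, which specifies ventral forebrain neurons, had 30.8, 81.3 and 54.5 CPM in control neurospheres, against 149, 128 and 117 CPM in control brains (-1.25 ± 0.32). Dlx2, Gad1, which encodes a GABA-making enzyme, and Lhx6 were lower, at -1.46 ± 0.46, -0.72 ± 0.23 and -0.81 ± 0.21. The Dlx2 call was lost without any 1 control brain library (adjusted p = 0.0693, 0.0532 and 0.0525) or neurosphere library 3 (0.0745). The Gad1 call was lost without any 1 control brain library (adjusted p = 0.0758, 0.0839 and 0.0555) or neurosphere library 2 (0.0653). The higher member was Sst, which encodes somatostatin (0.76 ± 0.24), and without library 1 there were 4 higher members.

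Genes for synapses and excitability were lower to differing extents. Of 28 synaptic genes, 2 were higher and 20 lower, with 7 lower beyond 2-fold (median -0.81), and without library 1 6 were higher. Syp, the vesicle protein synaptophysin, had 83, 90.00 and 80.01 CPM in control neurospheres, against 89.3, 112 and 86.5 CPM in control brains, and its groups overlapped (-0.18 ± 0.12; adjusted p = 0.198). Camk2b had 449.8, 143 and 137 CPM in control neurospheres, against 93.3, 129 and 101 CPM in control brains, with library 1 more than 3 times the others (adjusted p = 0.062). Camk2b was called higher without any 1 neurosphere library, at 0.38 (adjusted p = 0.0187) without library 1, and at 1.45 and 1.46 without library 2 or 3 (adjusted p = 0.0341 and 0.0329). Dlg4, the scaffold PSD-95, was lower, at -0.92 ± 0.13. Of 27 glutamate and GABA receptor subunits, 1 was higher and 19 were lower (median -1.5), with 3 higher without library 1. Grin2b, the NMDA receptor subunit of immature neurons, had 107, 99.8 and 69 CPM in control neurospheres, against 537, 652 and 564 CPM in control brains (-2.67 ± 0.18). The AMPA receptor subunit Gria2 was lower, at -0.77 ± 0.08 and the NMDA subunit Grin1 at -0.77 ± 0.22. The Grin1 call was lost without control brain library 2 (adjusted p = 0.0749) or neurosphere library 2 (0.0516). The higher member was Grm5, a metabotropic glutamate receptor (1.3 ± 0.24).

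Of 27 ion channel subunits, 22 were lower, 18 beyond 2-fold, and 4 higher (median -1.94). Scn2a, a sodium channel of young neurons, and Kcnd2, a potassium channel, were lower, at -1.9 ± 0.19 and -0.55 ± 0.15. The Kcnd2 call was lost by junction reads (-0.69; adjusted p = 0.12). The higher subunits included Kcnj10, the inward rectifier of glia (3.39 ± 0.35), and the potassium channels Kcna2 (3.04 ± 0.11) and Kcnd3 (1.4 ± 0.15). Kcna2 had 315, 279 and 294 CPM in control neurospheres, against 33.7, 40.9 and 33.8 CPM in control brains, with all neurosphere libraries close together.

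Regional identity separated the tissues sharply for midbrain and hindbrain genes and less for forebrain genes. Of 26 midbrain, hindbrain and spinal genes, 16 had enough reads to be tested, none was higher, and 15 were lower beyond 2-fold (median -4.57). These passed through their level in brain, so the count holds only for the tested ones. The remaining tested member, Egr2, had the other sign and was not called (3.42 ± 1.32; adjusted p = 0.0527). Egr2 had 221, 20 and 13 reads in control neurospheres, against 4, 6 and 2 in control brains. En2, a midbrain and cerebellar factor, had 1.82, 1.92 and 0.914 CPM in control neurospheres, against 40.2, 30.6 and 32 CPM in control brains (-4.46 ± 0.27). En1 was lower, at -5.62 ± 0.37. Pax5, of the midbrain-hindbrain boundary, had no read in control neurospheres, against 42.9, 28.9 and 35 CPM in control brains. The Hox genes Hoxa2 and Hoxb3 had no read in the neurosphere libraries either, and had 1, 31 and 9 reads (Hoxa2) and 0, 79 and 32 reads (Hoxb3) in control brain libraries 1, 2 and 3. Both Hox genes were uneven across the brain libraries.

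Of 20 genes of monoamine, cholinergic and peptide neurons, 9 were tested, 8 of them lower and 1 higher. Here too the lower ones passed through their brain reads, so the count says nothing about the whole list. Th, tyrosine hydroxylase of dopamine neurons, had 0.238, 0 and 0 CPM in control neurospheres, against 4.62, 6.26 and 4.05 CPM in control brains (-5.73 ± 0.73), and Slc6a5, the glycine transporter of inhibitory hindbrain and spinal neurons, had no read in the neurospheres and 1.3, 9.81 and 7.5 CPM in control brains. Tph2, the serotonin enzyme, was not tested, with no read in control neurospheres and 7, 18 and 10 reads in control brains. The higher gene was Slc6a9, the glial glycine transporter (2.52 ± 0.28).

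Of 15 forebrain factors, 1 was higher and 10 were lower, 7 beyond 2-fold (median -1.4). Emx2, a factor of dorsal telencephalon, was the higher one, at 0.48 ± 0.17 (adjusted p = 0.0418), with overlapping groups. The Emx2 call was lost without control brain library 2 or 3 (adjusted p = 0.131 and 0.118) and without neurosphere library 2 or 3 (0.112 and 0.11), and by junction reads the value was -0.25. Otx2, of forebrain, midbrain and choroid plexus, was lower, at -1.45 ± 0.18. Lef1, a Wnt effector of the hippocampal primordium and thalamus, had 0.555, 0.523 and 0.457 CPM in control neurospheres, against 50.1, 38.7 and 38.9 CPM in control brains (-6.35 ± 0.20), and Fezf1 was lower, at -4.38 ± 0.32.

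Markers of cell types from outside the neural lineage were at or near 0 in control neurospheres for the most part. As with the regional lists, many members passed the filter on low counts through their brain reads alone, and the counts below hold for tested members. Csf1r, the receptor that microglia need, had 0.158, 0.349 and 0 CPM in control neurospheres, against 17.9, 22.7 and 23 CPM in control brains (-6.92 ± 0.50), and the microglial receptor genes Cx3cr1 and P2ry12 and the complement gene C1qa were lower, at -6.48 ± 0.54, -4.23 ± 0.37 and -5.1 ± 0.48. Of 15 tested microglia and macrophage genes, 12 were lower and 1 was higher (median -4.47). Of 19 endothelial genes, 18 were lower, all 18 beyond 2-fold (median -5.5). Cldn5, the tight junction protein of brain vessels, had 0, 0.262 and 0.0762 CPM in control neurospheres, against 26.3, 30.1 and 30.2 CPM in control brains (-7.9 ± 0.43), and Pecam1, which encodes the adhesion molecule CD31, was lower, at -5.5 ± 0.24.

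Of 19 pericyte, smooth muscle and meningeal genes, 13 were lower and 3 higher (median -3.41). Col1a1, the fibrillar collagen of fibroblasts, had 5.39, 7.41 and 6.78 CPM in control neurospheres, against 137, 339 and 547 CPM in control brains (-5.71 ± 0.56), and the brain libraries spread over 4-fold. Lum, which encodes lumican of fibroblasts, was lower, at -4.69 ± 0.47. Pdgfrb, the pericyte receptor, had 1.58, 26.9 and 17.3 CPM in control neurospheres, against 39.1, 45.8 and 54.6 CPM in control brains (adjusted p = 0.0927), with library 1 far below libraries 2 and 3. Pdgfrb was called lower without library 1, at -1.08 (adjusted p = 0.00241), and without library 2, at -2.29 (adjusted p = 0.047). The higher members were Cspg4, Pdgfra and Notch3, all of which neural precursors or radial glia express too. Which cells carried their reads here was not tested. Of 12 choroid plexus genes, 11 were lower and 1 was higher (median -3.51). Ttr, the transthyretin made in bulk by choroid plexus, had 7.77, 29.6 and 30.1 CPM in control neurospheres, against 194, 400.4 and 319.7 CPM in control brains (-3.76 ± 0.53).

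Of 10 tested red blood cell genes, 9 were lower and none higher (median -10.13, which rests on fitted values of genes without reads). Alas2, the haem enzyme of red cell precursors, and Hbb-y, an embryonic globin, had no read in the 3 neurosphere libraries, against 11.4, 19.3 and 14.9 CPM and 149, 55.1 and 64.7 CPM in control brains. The member that was not called was Tfrc, the transferrin receptor (-0.05 ± 0.37; adjusted p = 0.904). Of 15 ependymal and cilium genes, 2 were higher (1 without library 1) and 9 lower (median -1.84). Foxj1, the master factor of motile cilia, had 25.2, 23.7 and 23.6 CPM in control neurospheres, against 11.6, 22.7 and 17 CPM in control brains (adjusted p = 0.0813; called higher, at 0.75, without control brain library 2, adjusted p = 0.018), and the lower members included the axonemal dyneins Dnah5, Dnah9 and Dnah11 (-2.48, -3.21 and -4.28).

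Several receptors and targets of growth factor signalling were higher in control neurospheres. Growth factor receptors activate the ERK kinases, which induce ETS factors such as Etv4 and Etv5 and the feedback inhibitors Spry and Dusp. Egfr, the EGF receptor, had 643, 345 and 377 CPM in control neurospheres, against 17.6, 29.6 and 40.5 CPM in control brains (3.96 ± 0.38; adjusted p = 1.2e-04), and Fgfr1, an FGF receptor, was higher by 0.76 ± 0.11. Spry2 had 169, 114 and 114 CPM in control neurospheres, against 18.6, 20.8 and 23.9 CPM in control brains (2.65 ± 0.19). Etv4 had 100.5, 48.3 and 59.9 CPM in control neurospheres, against 4.19, 5.24 and 3.9 CPM in control brains (3.97 ± 0.33). Every neurosphere library of these 3 genes lay above every brain library. Etv5 was higher by 2.54 ± 0.49. Dusp6 had 121, 22.8 and 22.2 CPM in control neurospheres, against 24.8, 23.5 and 25.8 CPM in control brains, so that only library 1 stood above the brains (adjusted p = 0.167), and without it the value was -0.14 (adjusted p = 0.291). Of 18 ERK targets, 11 were higher and 1 was lower, with a median of 1.7, against 14 higher and 3 lower and a median of 0.65 without library 1. Among 22 growth factors and receptors, 10 were higher and 7 lower (median 0.57). Ntrk2, the receptor of BDNF, had 802, 1564 and 1329.8 CPM in control neurospheres, against 206, 252 and 226 CPM in control brains (2.43 ± 0.25), while Bdnf itself did not differ beyond its spread (-0.27 ± 0.25; adjusted p = 0.367). The insulin-like growth factor gene Igf1 was lower, at -3.08 ± 0.51.

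Other developmental pathways were mixed. Of 19 Notch pathway genes, 8 were higher and 6 lower (median 0.5, and 0.02 without library 1), with the receptor gene Notch1 higher by 0.65 ± 0.09 and the ligand gene Jag1 and the feedback gene Nrarp not called (adjusted p = 0.0767 and 0.0529). Without library 1, Jag1 was called lower, at -1.65 (adjusted p = 5.2e-07), and Nrarp higher, at 1.39 (adjusted p = 2.7e-06). Of 22 Wnt pathway genes, 3 were higher and 11 lower (median -0.93), 6 of these lower beyond 2-fold and 10 without library 1. Axin2, the common readout of Wnt signalling, had 39.5, 35.9 and 30.6 CPM in control neurospheres, against 70.8, 66 and 69.9 CPM in control brains (-0.96 ± 0.12). Of 24 Hedgehog and BMP genes, 4 were higher and 13 lower (median -1.0), with 7 higher without library 1. Gli1, the Hedgehog readout, had 0.555, 0.262 and 0.229 CPM in control neurospheres, against 5.92, 5.58 and 10.2 CPM in control brains (-4.32 ± 0.45), while Ptch1, the Hedgehog receptor, overlapped between groups (0.16 ± 0.14) and was called higher without library 1, at 0.32 (adjusted p = 0.00147). The BMP targets Id1 and Id3 were higher by 1.33 ± 0.20 and 1.92 ± 0.19. By junction reads the calls of Notch1 (0.20; adjusted p = 0.104) and Id1 (0.76; adjusted p = 0.165) were lost.

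Extracellular matrix and integrin genes split almost evenly, with 18 of 33 higher and 13 lower. The higher ones included Itga6, an integrin of stem cells (1.81 ± 0.12), Itga7 (4.48 ± 0.21), and the surface proteins Cd44 and Cd9 (3.69 ± 0.39 and 3.71 ± 0.27). The lower ones included Fn1, which encodes fibronectin (-2.53 ± 0.20), Lama4, a laminin of vessels (-3.52 ± 0.23), and Reln, the secreted guide of cortical neurons (-2.42 ± 0.14).

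**Figure D3:**
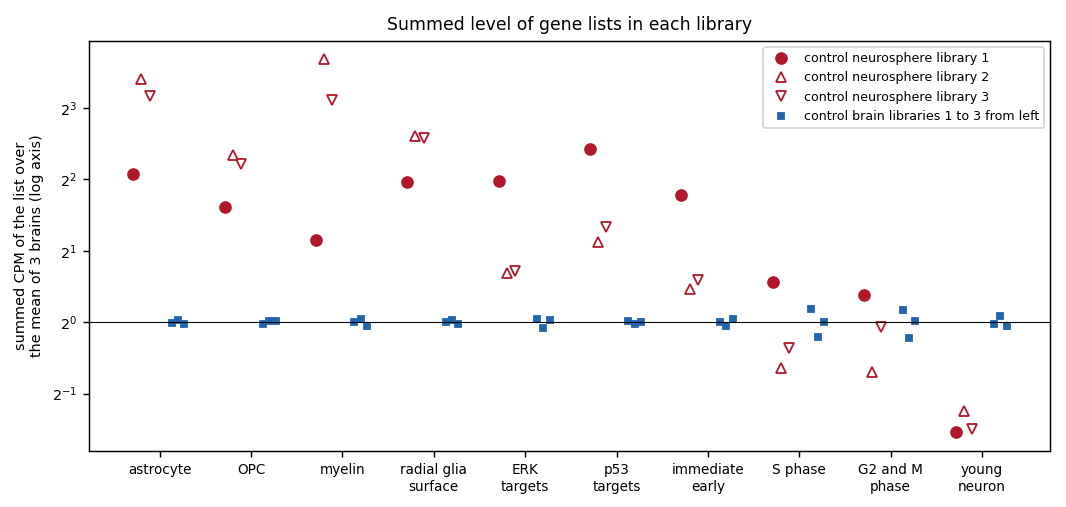
Summed normalised CPM of 10 gene lists in each library, divided by the mean of the 3 control brains, on a log2 axis. Neurosphere library 1 (filled circle) lies below libraries 2 and 3 for the glial lists and above them for ERK, p53, immediate early and cell cycle lists.

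The medians of cell cycle genes lay near 0 when all libraries were used, but the neurosphere libraries differed among themselves. Of 36 S phase genes, 1 was higher and 4 were lower (median -0.05), well under the share of all genes called. Mcm2, of the replication helicase, had 96.3, 36.9 and 44.2 CPM in control neurospheres, against 79.7, 53.4 and 63.3 CPM in control brains, and Rrm2, which makes deoxynucleotides, had 153, 49.1 and 64.8 CPM in control neurospheres, against 96.5, 70.7 and 78.3 CPM in control brains. Library 1 was the highest of all 6 libraries for both genes, and libraries 2 and 3 the lowest. The summed S phase level was 2068, 901 and 1092 CPM in control neurospheres, against 1588, 1215 and 1399.6 CPM in control brains. Without library 1, 21 of 36 were lower (median -0.64), where 38.7% of all genes were called lower, Mcm2 was at -0.69 (adjusted p = 0.00568) and Rrm2 turned to -0.52 (adjusted p = 0.0191). Of 41 G2 and M phase genes, 5 were higher and 2 lower (median 0.2), against 3 and 8 without library 1 (median -0.05). Mki67, the proliferation marker Ki-67, had 374, 135 and 231 CPM in control neurospheres, against 496, 375 and 453 CPM in control brains, with every neurosphere library below every brain library (-0.84 ± 0.34; adjusted p = 0.0621), and it was called lower without library 1, at -1.26 (adjusted p = 0.00977). Top2a, a topoisomerase, and Ccnb1, which encodes cyclin B1, overlapped between groups, and Ccnb1 was called higher without library 2, at 0.83 (adjusted p = 0.00431).

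Promoters of the G2 and M phase list were read from RefSeq windows of 300 bases around the start site (GRCm38.p6). Of 39 such promoters, 28 (71.8%) held TTTGAA or TTCGAA on either strand, letters of the element that cell cycle repressors bind, against 19.2% of all 32851 promoters. CCAAT was found in 74.4% of them and in 37.4% of all, on either strand, but also in 63.3% of S phase promoters, 65.5% of those of young neuron markers and 86.2% of those of clustered histones. The first pair of motifs was in 13.3%, 10.3% and 46.6% of these 3 lists. These matches describe letters only.

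Most p53 targets were higher in control neurospheres. Cdkn1a, which encodes the cell cycle inhibitor p21, had 555, 100.3 and 133 CPM in control neurospheres, against 9.68, 12.5 and 11.9 CPM in control brains (4.53 ± 0.75; adjusted p = 0.00147). Every neurosphere library lay at least 8 times above the highest brain library, and library 1 was the highest. Cdkn2a, the Ink4a/Arf locus, had no read in the brain libraries and 10.1, 1.13 and 2.21 CPM in the neurospheres, so it passed the filter through the neurospheres alone. Of 18 G1 cyclins and inhibitors, 9 were higher and 4 lower, and 7 lower without library 1, among them the inhibitor gene Cdkn1c, at -0.54 (adjusted p = 5.3e-04). Ccnd1, which encodes cyclin D1, had 1024, 118 and 129.8 CPM in control neurospheres, against 108, 83.2 and 108 CPM in control brains, with library 1 far above the others (adjusted p = 0.0631). Ccnd1 was called higher without any 1 neurosphere library, at 0.32 (adjusted p = 0.0262) without library 1, and at 2.54 and 2.52 without library 2 or 3 (adjusted p = 0.0259 and 0.0338). Of 22 p53 targets, 18 were higher and none lower (median 2.3), against 18 higher and 2 lower and a median of 1.49 without library 1. Of these targets, 2 (Gdf15 and Fas) had no read in control brains. They passed the filter through the neurospheres alone and could only be higher. Phlda3 had 115, 38.2 and 49.9 CPM in control neurospheres, against 3.18, 4.9 and 4.5 CPM in control brains (4.02 ± 0.50). Mdm2, the p53 ubiquitin ligase, overlapped between groups (0.09 ± 0.32), and was called lower, at -0.40, without library 1 (adjusted p = 0.00186). The summed p53 list was 3874, 1562 and 1817 CPM in control neurospheres, against 726, 705 and 723 CPM in control brains.

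Of 16 immediate early genes, which respond within minutes to stimuli or handling, 7 were higher and 3 lower. Their median was 1.49, and -0.06 without library 1, where 5 of 14 were lower. Fos had 78.5, 23.4 and 24.6 CPM in control neurospheres, against 0.289, 0.507 and 0.901 CPM in control brains (6.19 ± 0.78). With 2, 3 and 6 reads in the brain libraries, Fos passed the filter on low counts through the neurospheres. Egr1 had 374, 14.6 and 18.6 CPM in control neurospheres, against 5.78, 4.06 and 3.15 CPM in control brains (4.96 ± 1.5; adjusted p = 0.0215). Egr1 in library 1 stood far above libraries 2 and 3, and the Egr1 call was lost without any 1 control brain library (adjusted p = 0.066, 0.074 and 0.0767).

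Genes of protein synthesis and respiration were higher throughout their lists. All 44 cytosolic ribosomal protein genes were higher, 34 beyond 2-fold, within a range of 0.9 to 2.0 (median 1.52). Rps3 had 761, 1064 and 1131 CPM in control neurospheres, against 252, 239 and 263 CPM in control brains (1.97 ± 0.16), and Rplp0 was higher by 1.12 ± 0.13. All 39 nuclear-encoded respiratory chain genes were higher, 30 beyond 2-fold (median 1.47). Sdha, a subunit of complex II, had 379.8, 364 and 383 CPM in control neurospheres, against 125, 116 and 114 CPM in control brains (1.67 ± 0.08), and Ndufa4 was higher by 1.71 ± 0.10. All 13 mRNAs encoded in the mitochondrial genome were higher as well (median 1.6). The mitochondrial mt-Co1, of complex IV, had 13936, 17673 and 16433 CPM in control neurospheres, against 4240.3, 4095 and 4009.5 CPM in control brains (1.96 ± 0.12), and mt-Nd1, of complex I, was higher by 0.88 ± 0.10. Ribosomal protein genes have many processed copies, and reads can be split among them.

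Lysosomal genes were higher in nearly the whole list. Of 40 lysosomal and V-ATPase genes, 37 were higher and none lower, 20 beyond 2-fold (median 1.24). Atp6ap2, which encodes the (pro)renin receptor, a V-ATPase accessory protein and the gene deleted in the CKO, had 100.2, 104 and 102 CPM in control neurospheres, against 61.7, 63.9 and 74.6 CPM in control brains (0.61 ± 0.09; adjusted p = 8.7e-04). The groups did not overlap. The protease gene Ctsd and the membrane protein gene Lamp1 were higher by 2.49 ± 0.13 and 2.14 ± 0.14, Hexa by 3.07 ± 0.12 and the tetraspanin gene Cd63 by 4.81 ± 0.16. Tfeb, the transcription factor of lysosomal genes, had 12.1, 12 and 11.5 CPM in control neurospheres, against 1.3, 2.03 and 1.05 CPM in control brains (3.03 ± 0.26). Atp6v1g2, the neuronal V-ATPase subunit, overlapped between groups (0.21 ± 0.19).

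Lipid synthesis genes were mostly higher. Of 14 fatty acid genes, 11 were higher and 1 was lower (median 1.96). The desaturases Scd1 and Scd2 were higher by 3.86 ± 0.21 and 2.11 ± 0.20, and Scd1 had 294, 446 and 469.5 CPM in control neurospheres, against 24, 30.8 and 28.8 CPM in control brains. Fasn, the fatty acid synthase, did not pass (0.15 ± 0.09; adjusted p = 0.153). Of 25 sterol synthesis genes, 18 were higher and 2 lower (median 0.69). Hmgcs1, a synthase early in the pathway, was higher by 0.89 ± 0.15, and Sqle, the squalene epoxidase, was not called (0.12 ± 0.10). Without library 1, Sqle was called higher, at 0.19 (adjusted p = 0.0335).

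Of 25 glycolytic and hypoxia-inducible genes, 17 were higher and 2 lower (median 0.92). Ldha, which makes lactate, was higher by 1.45 ± 0.11, and the glucose transporter gene Slc2a1, abundant in brain vessels, was lower, at -1.43 ± 0.12. Car9, a hypoxia marker, had too few reads to be tested: 1, 14 and 33 in control neurospheres, against 5, 0 and 0 in control brains. Of 31 genes induced by ATF4 or by unfolded proteins, 24 were higher and 3 lower (median 0.95), with Trib3 and Asns, asparagine synthetase, higher by 3.11 ± 0.31 and 1.94 ± 0.15. The cystine transporter gene Slc7a11 was not called (0.93 ± 0.41), but was higher without neurosphere library 2 or 3, at 1.17 in each case (adjusted p = 0.0433 and 0.0474).

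Of 23 antioxidant and metal response genes, 19 were higher and none lower (1 without library 1; median 1.72). The metallothionein gene Mt1 had 215, 264 and 239 CPM in control neurospheres, against 2.46, 2.87 and 3.15 CPM in control brains (6.4 ± 0.14), and Mt2, Hmox1 and Nqo1 were higher by 4.99 ± 0.35, 2.71 ± 0.44 and 3.61 ± 0.63. Of 21 tested genes of the interferon response and antigen presentation, 15 were higher and none lower (median 2.51). H2-K1, a class I antigen-presenting molecule, had 43.7, 63.4 and 58.9 CPM in control neurospheres, against 2.17, 2.87 and 3.3 CPM in control brains (4.31 ± 0.22). B2m, its light chain, was higher by 2.95 ± 0.14. Isg15, a classical interferon-induced gene, had 0.475, 1.13 and 1.3 CPM in control neurospheres, against 1.44, 0.169 and 1.5 CPM in control brains (-0.13 ± 0.67; adjusted p = 0.873), and Ifit3 was not tested, with 10, 30 and 23 reads in control neurospheres, against 5, 5 and 2 in control brains.

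Of 16 imprinted genes, 1 was higher and 12 were lower (median -1.1). Igf2, the fetal growth factor also made by vessels, meninges and choroid plexus, had 23.2, 12.9 and 7.85 CPM in control neurospheres, against 205, 266 and 332 CPM in control brains (-4.19 ± 0.41). Dlk1, a Notch-related surface protein, had 3.01, 1.66 and 1.91 CPM in control neurospheres, against 65.2, 56.8 and 69 CPM in control brains (-4.85 ± 0.22), and Peg3 was lower, at -1.05 ± 0.10. Nnat was called lower as well. The higher member was Impact (0.78 ± 0.09). Of 24 chromatin and DNA methylation enzymes, 4 were higher and 13 lower (median -0.46). Ezh2, the Polycomb methyltransferase, was lower, at -0.72 ± 0.10 and the neuronal gene repressor Rest at -0.45 ± 0.13. Dnmt1, the maintenance methyltransferase, had 236, 122 and 139 CPM in control neurospheres, against 246, 221 and 222 CPM in control brains (adjusted p = 0.123), with library 1 in the brain range, and was called lower without it, at -0.81 (adjusted p = 6.6e-06). The Nnat call was lost without control brain library 1 (adjusted p = 0.0532). The Rest call was lost without control brain library 1 or 3 (adjusted p = 0.055 and 0.0779) or neurosphere library 2 or 3 (0.0599 and 0.0689).

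The genes with the most exon reads per kilobase of exon in control neurospheres were the elongation factor Eef1a1, the brain creatine kinase Ckb, Apoe, Fabp7 and the ferritin light chain Ftl1. In control brains they were the alpha-tubulin Tuba1a, Eef1a1, the actin Actb, the alpha-globin Hba-a2 and the beta-tubulin Tubb2b. Eef1a1 had 4857 CPM per kb in control neurospheres, against 1901 in control brains, and Ckb 2836 against 217. Tuba1a had 1378 CPM per kb in control neurospheres, against 2501 in control brains, a log2 fold change of -0.86 ± 0.17. Tubb2b was at a like level in both (899 and 953 CPM per kb; log2 fold change -0.09 ± 0.12, adjusted p = 0.561).

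The 10 genes named next had the largest differences in favour of control neurospheres. They were called, without overlap, with at least 5 CPM there and at least 10 reads summed over the brains. After Gpr17 and Apoe came Mt1, the epoxide hydrolase and p53 target Ephx1 (6.36 ± 0.71), the lipogenic regulator Thrsp (6.34 ± 0.36), Fos, the oligodendrocyte gene Bcas1 (6.07 ± 1.17), the homeobox gene Dbx2 (6.06 ± 0.42), Scrg1 (6.02 ± 0.97) and Dio2, the deiodinase that activates thyroid hormone in astrocytes (5.91 ± 1.09). Dbx2 had 69.8, 49.6 and 47.5 CPM in control neurospheres, against 0.289, 0.507 and 1.65 CPM in control brains. In the brain libraries Thrsp had 4, 9 and 6 reads and Fos 2, 3 and 6. Dbx2 had 2, 3 and 11 reads there, and Scrg1 6, 4 and 1. Thrsp, Fos, Dbx2 and Scrg1 passed the filter on low counts through the neurospheres, and their fold changes rest on these few brain reads. Only 6 genes with at least 5 CPM in control neurospheres had 3 or fewer reads summed over the control brains. Gdf15, a secreted p53 and stress target, had 474, 73 and 78 reads in control neurospheres and none in control brains, which makes it at least 109-fold higher against a floor of 3 reads over the brains. Fas, the death receptor, had 192, 43 and 71 reads and none in control brains, and was at least 53.5-fold higher. In GENCODE M21, Fas overlaps Gm27818, a small RNA gene, and reads of the overlapping genes cannot be told apart. Serpina3n, an acute-phase protease inhibitor of reactive astrocytes, had 306, 423 and 265 reads in control neurospheres, against 0, 2 and 1 in control brains, a ratio of 174 with a 95% counting interval of 59.2 to 843. Gpr37l1, a receptor of astrocytes, and Gpnmb, a lysosomal glycoprotein, had 3 reads each in the brains and ratios of 128 and 87.3.

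In the other direction, 84 genes with at least 5 CPM in control brains had 3 or fewer reads in the neurospheres, 26 of them clustered histone genes and 6 erythroid genes. Hbb-bs, the adult beta-globin, had 1 read in library 1 and none in libraries 2 and 3, against 2109, 3060 and 3130 reads in control brains. Hbb-bt had no read in the neurospheres and 803, 1041 and 1125 reads in control brains. Ccnb1ip1, a ubiquitin ligase gene, had 3, 0 and 0 reads in control neurospheres, against 4295, 4083 and 2578 in control brains, a ratio of 6970 in favour of the brains with a 95% counting interval of 2384 to 33800. In GENCODE M21 the gene overlaps Rpph1, the RNA component of ribonuclease P, on the same strand, and reads of the overlapping genes cannot be told apart.

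Clustered histone genes made up all 10 of the largest differences in favour of the brains among genes with at least 10 reads in the neurospheres. These genes supply histones for newly replicated DNA. Their mRNAs mostly end in a short stem-loop in place of a poly(A) tail, unlike those of most variant histone genes elsewhere in the genome. Their list was made after the values were seen. The 63 clustered genes summed to 139, 126 and 129 CPM in control neurospheres, against 6322, 4327 and 4820.0 CPM in control brains. Of 59 tested, none was higher and 58 were lower, 56 beyond 2-fold (median -8.7), and 15 of the 63 had no read in the neurospheres. The median was -8.51 for 55 genes with uniquely placed reads, since near-identical copies share reads. By junction reads a single member was tested (1.53).

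The stem-loop was sought on the transcript strand as GG, 4 further bases of any kind, TTTN and the reverse complement of the first 6 bases, in the last 100 bases of GENCODE M21 transcripts. It was found in 22 of 21686 genes (0.101%), all 22 of them clustered histone genes (34.9% of the 63), and in none of 9 histone variant genes. Only exact stems near the annotated ends of protein-coding transcripts were counted. A gene outside the 22 may still carry the element. The sequences show each of the cores found, and H2ac24 as a gene that shares the core of H3c2 and changed least among genes with a stem-loop. Capitals mark the stem-loop, lower case its flanks, and the coordinates of the capitals are GRCm38.
H3c2, chr13:23752820-23752835, plus strand: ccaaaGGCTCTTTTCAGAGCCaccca
H2bc12, chr13:22036300-22036315, plus strand: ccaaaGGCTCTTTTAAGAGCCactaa
H4c8, chr13:23531458-23531473, plus strand: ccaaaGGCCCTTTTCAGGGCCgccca
H4c2, chr13:23757366-23757381, plus strand: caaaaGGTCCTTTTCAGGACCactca
H2ac20, chr3:96220418-96220433, minus strand: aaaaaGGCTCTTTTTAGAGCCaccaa
H2ac24, chr13:21833029-21833044, minus strand: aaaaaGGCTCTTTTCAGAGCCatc
The first core was in 13 genes and the H4c8 core in 4. In each sequence the arms of the stem are complementary.

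The genes printed above spanned the range. H3c2 had no read in control neurospheres, against 198, 153 and 193 CPM in control brains, so that it was at least 2268-fold lower. H2bc12 had no read either, against 160.1, 103 and 101 CPM. H4c8 had 0.317, 0.174 and 0.152 CPM in control neurospheres, against 264, 208 and 205 CPM in control brains (-9.95 ± 0.23). H2ac24, with the same core as H3c2, had 51.8, 18.3 and 20.1 CPM in control neurospheres, against 166, 109.8 and 150.1 CPM in control brains, and had a smaller difference (-2.24 ± 0.42). The 20 tested genes with the stem-loop had a median of -10.04 and were all lower, and 38 of 39 tested clustered genes without these exact letters were lower too, with a median of -8.35. Both medians rest partly on genes with few or no neurosphere reads, and the difference between them was not tested. The linker histone gene H1f4 was lower, at -7.91 ± 0.26 and the core histone gene H4c18 at -9.0 ± 0.44. The one member not called was H2bc21 (-0.32 ± 0.38; adjusted p = 0.486), with 7.53, 16.6 and 20.4 CPM in control neurospheres, against 19.5, 13 and 22.8 CPM in control brains.

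Histone variant genes had similar summed levels in both tissues. They summed to 2075, 2457 and 2513 CPM in control neurospheres, against 2444, 2118 and 2221 CPM in control brains, and of 9, 2 were higher and 2 lower (median 0.09; 5 higher without library 1). The median is under the shift that scaling by total exon reads makes and is -0.04 there. H3f3b had a log2 fold change of 0.09 ± 0.11, H2az2 of 1.1 ± 0.15. The intron share moved with the clustered histones, at 9.18 to 14.1% in control neurospheres, against 63.8 to 65.5% in control brains, and the labels give one ribosomal RNA depletion protocol for all libraries. Its part in the histone difference was not tested.

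**Figure D4:**
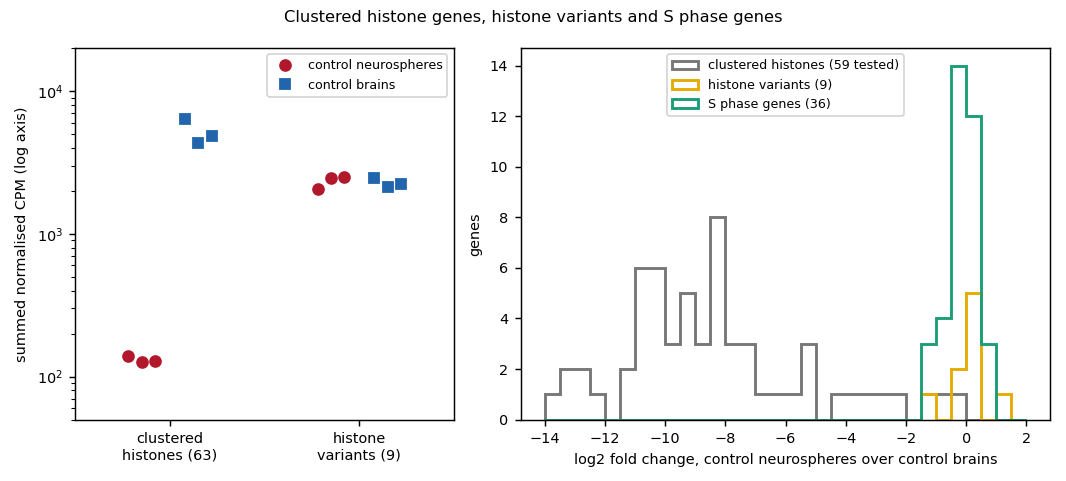
Left, summed normalised CPM (log axis) of 63 clustered histone genes and 9 histone variant genes in each library. Right, number of tested genes by log2 fold change. Clustered histones lie far below 0, while variants and S phase genes lie around 0.

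Intron reads, counted inside genes but outside their exons, gave a second readout of the same libraries. They need not be unspliced RNA alone. The 13 mRNAs encoded in the mitochondrial genome were in this fit too, with a median of 4.26. Of 12768 genes in both fits, 73.66% had the same sign by exon and by intron reads, and of 7149 called in both, 6099 (85.31%) did. By intron reads 39.1% of 13596 genes were called higher and 38% lower. Sox2 was higher by 4.56 by intron reads, Olig2 by 6.26 and Gfap by 7.93, and Dcx was lower, at -3.26, Bcl11b at -5.22 and Rbfox3 at -4.88. Neurog2 and Neurod2, lower over exons, were at 0.36 and 0.16 by intron reads. Neither intron value passed its test (adjusted p = 0.455 for Neurog2 and 0.525 for Neurod2). Ntrk2 was at 2.43 by exon reads and -1.37 by intron reads.

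Gene span ran with the difference. The median was 0.39 over 3237 genes of up to 10 kb, 0.18 over 4394 of 10 to 30 kb, -0.11 over 4049 of 30 to 100 kb, -0.56 over 1709 of 100 to 300 kb and -1.33 over 526 above 300 kb. Of the longest class, 47% were lower beyond 2-fold and 2.47% higher. Junction reads, which come from spliced RNA, gave -1.53 in the longest class and 0.62 in the shortest, and intron reads gave -3.54 and 1.51. Many neuronal genes are long, and how far span and cell type each carry the pattern was not tested.

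**Figure D5:**
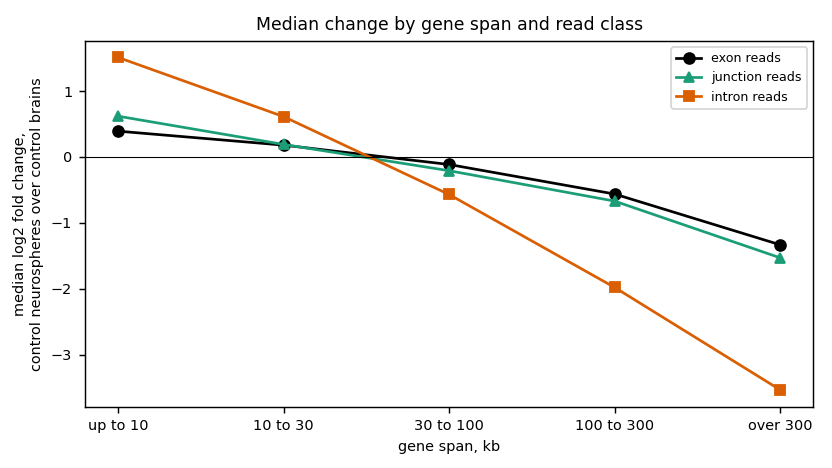
Median log2 fold change of control neurospheres over control brains by gene span, for exon reads, junction reads and intron reads. All 3 read classes fall with span, and intron reads fall the most.

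The same contrast in the CKO libraries shares no library with the controls. Of 1559 genes higher beyond 2-fold in control neurospheres and tested there, 1494 were higher in CKO neurospheres than in CKO brains, where 38.7% of 13939 genes were called higher. Of 2001 lower beyond 2-fold, 1931 were lower there, against 37.2% of all genes. The clustered histone median was -9.17 in the CKO contrast, that of astrocyte genes 2.53 and that of young neuron markers -2.45. The S phase median was 1.24 in the CKO contrast and -0.05 in controls, and the G2 and M phase median was 1.41 in CKO and 0.2 in controls. The myelin list stood at -1.2 in the CKO contrast and at 2.64 in controls, and none of these differences between the contrasts was tested.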

How the data were processed

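RNA was counted in 3 control neurosphere and 3 control brain libraries, labelled at embryonic days 16 and 15. Per the file headers, the deposited values used here are raw counts of exon, uniquely placed exon, exon-exon junction and intron reads for each gene, as whole numbers and not normalized. Other deposited columns used give annotation: exon length, exon number, chromosome, start, end and gene identifier. Another 120 columns of per-sample values were not used. Total RNA was depleted of ribosomal RNA and made into strand-marking libraries, per the labels' protocols. The builds GRCm38 and mm10 are named, per the submitters' processing notes; which aligner and gene annotation were used, and whether counting used strand, the sources used here do not say. Of 25655 genes listed, 3731 had exon length 0 and no read.

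Exon counts of the 6 libraries were fitted with TMM factors, filterByExpr and robust glmQLFit (edgeR 4.0.16, R 4.3.3), followed by a two-sided quasi-likelihood F-test and glmTreat against a log2 fold change of 1. P-values were adjusted by Benjamini-Hochberg over 13915 genes, with calls under 0.05. The SE is the absolute log2 fold change over the square root of F. Counting intervals are exact binomial at 95%, and cover counting error only. Alternatives were RLE and total-read scaling, no filter, DESeq2 1.42.0, other read classes, all 12 libraries, a replicate block and left-out libraries. The fit was tested on simulated data in which few genes changed, evenly in both directions, and no library stood apart. In the real data most genes were called and neurosphere library 1 stood apart. The simulation therefore does not show how the fit behaves in that setting. Replicate numbers were not used to pair the libraries in the main fit. The members and 47 gene lists were chosen with earlier results of these data known; the 2 histone lists were added after their values were seen. Named genes were the marked list members, and the 10 largest and 10 smallest log2 fold changes among called, non-overlapping genes. The latter needed at least 5 CPM in the higher group and at least 10 reads summed over the lower one. Up to 5 per direction nearly without reads in one group, and the 5 per group with most reads per kb, were named too. Other genes named were chosen after their values were seen. Histone stem-loops come from GENCODE M21 transcripts and promoters from RefSeq (Python 3.11.15). Some genes of these lists are counted but not reported here by name.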

Additional observations from a re-analysis of the deposited data

Results flagged for a closer look

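Pdgfra, the receptor of oligodendrocyte precursors, had neurosphere and brain libraries that did not overlap in controls or in CKO, with opposite directions. Its log2 fold change was 2.32 (adjusted p = 0.00868) in control neurospheres over control brains. It was -1.54 (adjusted p = 0.0156) in CKO neurospheres over CKO brains. The difference between the contrasts was not tested.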

How the results depend on the processing

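The counts of genes higher and lower stayed within 1.5 times under all alternatives run, except that junction reads, with 10872 genes tested, gave 1019 higher and 1265 lower beyond 2-fold. DESeq2 gave 1119 and 1707. Leaving out 1 library gave 4246 to 5355 higher, 4262 to 5364 lower, 1319 to 1883 higher beyond 2-fold and 1828 to 2351 lower beyond 2-fold. Scaling by total exon reads put the higher share of calls at 44.42% against 50.49%. The deviations of same-numbered libraries correlated at 2e-04, 0.1027 and -0.0421. With 3 libraries per group these values cannot settle whether same-numbered libraries belong together. The replicate block gave 4635 and 4629 calls, 1514 and 1994 beyond 2-fold. On the gene strand alone, 53.8% of the G2 and M phase promoters held TTTGAA or TTCGAA, against 11.6% of all. The share of genes with like exon and intron signs was 73.52% over genes with at least 50 reads of each. Of 189 named genes, 16 changed sign under at least 1 alternative. Of these, 3 were called before or after the change: Emx2 went to -0.25 by junction reads (adjusted p = 0.636), and, without control neurosphere library 1, Rrm2 to -0.52 (range over left-out libraries -0.52 to 0.41) and Mdm2 to -0.40 (-0.40 to 0.31); the cause was not tested. Among the named genes, 20 gained a call without that library and 0 lost one. By junction reads 8 named genes lost a call and kept their sign, among them Gja1, Kcnd2, Notch1, Id1, Dlx2 and Gad1. Of 48 list medians by junction reads, 22 stayed within the spread between neurosphere libraries. The median of neural stem cell transcription factors was 0.18 by junction reads, and that of Wnt pathway genes -0.35. The medians of the S phase, G2 and M phase and variant histone genes changed sign under 1 or more alternatives, that of the immediate early genes without library 1, and those of the proneural list and the clustered histones (1 gene) by junction reads. With 3 libraries per group, genes whose libraries scatter, such as those that library 1 sets apart, are called least firmly, and the control brains held fewer exon reads than the control neurospheres.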

Other observations

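Of the 84 genes with at least 5 CPM in control brains and 3 or fewer reads in control neurospheres, 38 were in none of the gene lists. Several are transcription factors of diencephalon, midbrain, hindbrain or sensory neurons, named here after their values were seen. Pax7, of the dorsal midbrain and neural tube, had 0.0792, 0 and 0.0762 CPM in control neurospheres, against 24.6, 18.1 and 20.1 CPM in control brains. Pou4f2, of retinal and midbrain neurons, had 13.3, 15.6 and 12.3 CPM in control brains, Sox14, of thalamic and midbrain interneurons, 21.5, 18.9 and 17.7, and Sim1, of the hypothalamus, 18.8, 12 and 17.4. Onecut1 had 22, 21.5 and 16.7 CPM and Tfap2a, of neural crest and hindbrain, 14, 17.8 and 17.1. All 3 brain libraries carried each of these genes, and the neurosphere libraries together held at most 3 reads of each. Of the 6 genes at the other extreme, Fa2h, which makes hydroxylated fatty acids of myelin, averaged 8.07 CPM in control neurospheres.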
